A study of Mus musculus with 16 samples.

Results

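Gene expression was compared between the parotid and the submandibular gland of the mouse embryo, and the comparison was restricted to differences that epithelium and mesenchyme had in common. All 16 of the 16 libraries were used. For each gene the parotid over submandibular difference was estimated in epithelium and in mesenchyme, and the mean of both was tested with the layer kept in the model. Of 18191 genes tested, 228 marked a gland in both layers with the same sign and a similar size. These had an adjusted p under 0.05 in each layer, a log2 fold change of at least 1 in size in each layer, estimates at most 1 apart between the layers, and no called difference between the layers. The members of this set were 112 genes higher in parotid and 116 genes lower in parotid, that is, higher in submandibular gland.

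The parotid and the submandibular gland both form by branching of an oral epithelial bud into neural crest-derived mesenchyme. Regional identity of facial mesenchyme is carried by homeobox and T-box transcription factors, and it is kept up by WNT, BMP, FGF and retinoic acid signals that pass between epithelium and mesenchyme. In bulk tissue, regional expression in both layers, RNA of one layer carried into the other and a handling difference between the glands all give a gland difference of one sign in both layers, and the contrast by itself does not separate them.

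The tissue came from wild-type embryos of the outbred ICR strain at embryonic day 13, with no transgene and no treatment, and each group held 4 samples that the labels call independent biological replicates. The 4 groups were the epithelium and the mesenchyme of each gland. The series' design text also speaks of culture before dissection, while the sample labels describe harvest at that age, so whether these glands had been cultured was not settled here. RNA of whole layers was sequenced, so fewer cells of a type and less RNA per cell cannot be told apart. The p-values measure the spread between these samples.

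Total gene counts ran from 16912258 to 27646844 per library. Each layer held little of the other's defining markers. Summed over 20 mesenchymal identity genes, epithelium stood at 1.61% of mesenchyme in parotid and at 2.29% in submandibular gland. Summed over 20 epithelial identity genes, mesenchyme stood at 1.04% of epithelium in parotid and 1.03% in submandibular gland. The sample numbers in the deposited column names ran from 26 to 33 for parotid and from 9 to 16 for submandibular gland, in both layers. What these numbers stand for is not given, and gland and number cannot be told apart. Xist and transcripts of the Y chromosome occurred in both glands. Some libraries held both, such as parotid epithelium replicate 4 (Xist 45.1 and Ddx3y 57.9 CPM). In submandibular mesenchyme Ddx3y was 184 CPM in replicate 2 and at most 1.53 in the others. Of 6 sex chromosome genes, 0 were called in the mean gland difference by edgeR, DESeq2 or limma-voom, and 0 had an unadjusted p under 0.05 in edgeR. These genes varied widely within groups, so the test could miss a difference in sex between the glands.

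Most genes with a called mean gland difference were not called in both layers, which does not show that the layers differed. In the quasi-likelihood fit of edgeR, with p-values adjusted after Benjamini and Hochberg, the mean difference was called for 6544 genes (36.0% of those tested), 3805 higher in parotid (20.9%) and 2739 lower (15.1%). Of these 6544 genes, 1221 were called in each layer with one direction, 111 in each layer with opposite directions, 3092 in mesenchyme alone, 1353 in epithelium alone and 767 in neither. The single-layer tests called 3801 genes in epithelium (20.9%; 11.2% higher and 9.72% lower in parotid) and 6282 in mesenchyme (34.5%; 20.8% higher and 13.7% lower). Both layers called 1703 genes, 71.7% of them with the same direction. The 1221 genes of one direction (6.71% of those tested) were 843 higher in parotid (4.63%) and 378 lower (2.08%), which is 32.1% of the epithelial calls and 19.4% of the mesenchymal calls. Across genes, the layers' log2 fold changes had a Pearson r of 0.18 and a Spearman rho of 0.23, and genes are not independent replicates. The median log2 fold change over all genes was close to 0 in epithelium and 0.04 in mesenchyme. Counts of shared direction rested in part on single epithelial libraries. Without parotid epithelium replicate 4 and submandibular epithelium replicate 1, the pair with most erythroid counts in epithelium, 614 genes had one direction and 148 met the criteria for similar size. Without submandibular epithelium replicate 1 alone, the genes lower in parotid in both layers numbered 237. Scaling by library totals alone, in place of TMM, changed the split of the mean difference to 2637 higher and 4150 lower and turned that of the genes of one direction to 549 higher and 647 lower, with a median over all genes of -0.14 in mesenchyme.

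**Figure D1:**
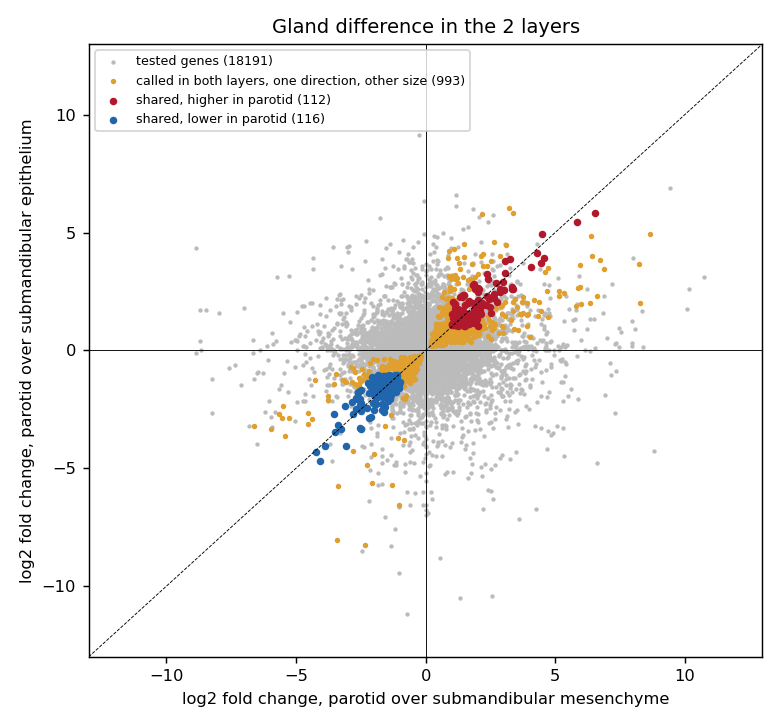
Log2 fold change of parotid over submandibular epithelium (vertical axis) against that of parotid over submandibular mesenchyme (horizontal axis), 1 point per tested gene. The 112 red and 116 blue genes lie along the dashed line of equal change because their criteria select for it. Orange genes were called in both layers with one direction but another size. The grey cloud shows how weakly the layers were related (Pearson r 0.18).

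At least a 2-fold difference in each layer was reached by 361 of the 1221 genes. Of these, 72 also had a called difference between the layers (called for 20.9% of all genes, 8.67% more positive in epithelium and 12.2% in mesenchyme) and a further 61 had estimates more than 1 apart, which left the 228 (1.25% of the genes tested; 0.616% higher and 0.638% lower). A missed difference between layers does not show equal size: the 95% interval of the layer difference lay within -1 to 1 for 33 of the 228, 23 higher and 10 lower in parotid. Libraries of the glands did not overlap in either layer for 153 members, against 5.74% of all genes with one direction (20.7% without overlap in epithelium, 36.8% in mesenchyme); the criteria for members favour such genes. Just inside the fold threshold stood the histone gene H2bc8, with a log2 fold change of -1.005 in its weaker layer, and Bdh2, with 1.01. Just outside stood Gm16023 and Ccdc13, with -0.998 and -0.981. The median of the mean log2 fold change was 1.77 among members higher in parotid (1.05 to 6.19) and -1.71 among members lower in parotid (-4.38 to -1.07). Counts were low for part of the set: 140 members had at least 30 counts in every group, 8 had 1 to 3 counts in some group and 4 had none in some group. Both layers of the higher gland reached a mean of 5 CPM (counts scaled to a common library size with TMM) for 58 members, 41 higher and 17 lower in parotid.

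How much of each member was present in the layer with less differed between the directions. In the gland where it was higher, a member lower in parotid had in its poorer layer a median of 38.3% of the CPM of its richer layer, and 94 of 116 stood at 10% or more. Among members higher in parotid the median was 12.3%, and 62 of 112 stood at 10% or more. Most members higher in parotid, 82 of 112, were more abundant in mesenchyme. Of these 82, 15 stood in epithelium at or under the 1.61% of the summed mesenchymal identity genes, among them Shox2 (0.378%), Lox (0.686%) and Dlx5 (1.10%). Of the 65 members lower in parotid and more abundant in mesenchyme, 2 stood at or under the 2.29% of the same markers in submandibular gland, 1 of them the kinase gene Nrk (1.08%). None of the 30 and 51 members more abundant in epithelium stood at or under the epithelial marker sum. Some single markers ran higher than their sums, such as Twist2 in parotid epithelium (53.5%), Fbn1 in submandibular epithelium (39.3%) and Epcam in submandibular mesenchyme (5.02%). Members above every marker of the other layer numbered 98, 21 higher and 77 lower in parotid. The highest single marker set the bar, which differed between the groups. Of the 82 higher in parotid with more in mesenchyme, 7 passed 53.5%. Of the 51 lower in parotid with more in epithelium, 48 passed 5.02%. These counts therefore cannot be compared between the directions. The part of carried RNA in the members at the markers' level was not tested. These levels were read after the data were seen for Shox2, Lox and Dlx5.

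**Figure D2:**
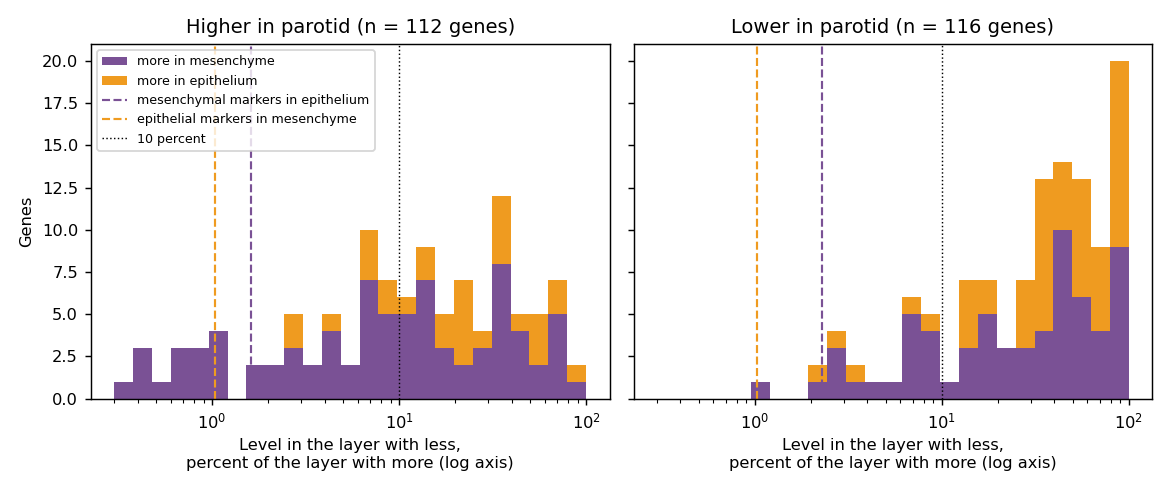
Number of members (vertical axis) by the CPM of their poorer layer as a percent of the richer layer (log axis), in the gland where the member was higher; bars are stacked by the layer with more. Dashed lines are the identity marker sums of the other layer (1.61% and 1.04% in parotid, 2.29% and 1.03% in submandibular gland): the left panel has a tail below them, the right panel is weighted towards 100%, and 62 of 112 against 94 of 116 members stand at or right of the dotted 10% line.

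Among the members higher in parotid, Kremen2, a co-receptor for Dickkopf proteins on chromosome 17 (23741197 to 23745833, minus strand, GRCm38), was mainly epithelial. Its CPM was 160, 157, 226 and 192 in parotid epithelium against 37.6, 52.3, 43.9 and 59.8 in submandibular epithelium, and 17.3, 13.0, 14.8 and 3.73 in parotid mesenchyme against 1.58, 3.00, 2.89 and 2.18. The glands did not overlap in either layer, although parotid mesenchyme replicate 4 lay close to submandibular mesenchyme. The log2 fold change was 1.92 ± 0.31 (SE, as after every log2 fold change) in epithelium and 2.33 ± 0.37 in mesenchyme, with a mean of 2.13 ± 0.24 and an adjusted p of 1.11e-05 by edgeR's quasi-likelihood test. Dkk2, a secreted ligand of the same co-receptor system, was mainly mesenchymal. It had 302, 262, 375 and 307 CPM in parotid mesenchyme against 27.3, 28.1, 39.1 and 58.9 in submandibular mesenchyme, and 13.7, 8.54, 18.9 and 14.3 in parotid epithelium against 0.575, 0.322, 8.01 and 1.32 in submandibular epithelium. The glands were apart in both layers, but in epithelium by a narrow margin because of submandibular replicate 3, and epithelium had 4.44% of the mesenchymal level in parotid. The mean log2 fold change was 2.79 ± 0.43 (adjusted p = 0.000242, edgeR), and without the pair of epithelial libraries with most erythroid counts Dkk2 lost its call in epithelium (adjusted p = 0.0781 by edgeR).

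Nkd1, an intracellular inhibitor that WNT signalling itself induces, had 15.2, 21.3, 23.0 and 24.2 CPM in parotid epithelium against 4.75, 5.48, 5.15 and 6.64 in submandibular epithelium. In mesenchyme the values were 38.4, 40.4, 31.7 and 37.2 against 9.65, 20.4, 12.8 and 25.2, again without overlap. Its mean log2 fold change was 1.52 ± 0.17 (adjusted p = 4.27e-06, edgeR). Apc2, a relative of the scaffold of the beta-catenin destruction complex, had a mean log2 fold change of 1.80 ± 0.20, and the TNF receptor family gene Tnfrsf19 1.62 ± 0.26. Tle4, a Groucho family co-repressor that partners TCF factors, was chosen after its values were seen. It had 81.7 ± 10.9 (SD, n = 4) against 28.1 ± 9.26 CPM in epithelium and 123 ± 17.6 against 38.5 ± 12.8 in mesenchyme. Of 12 tested WNT response genes, 9 were higher in parotid in the mean difference (20.9% of all genes) and 0 lower (15.1%), with a list median of 1.07 on the log2 scale against 0.01 over all genes. Both layers called 2 of them, Nkd1, the member of similar size, and Nkd2 (log2 fold change 1.81 in epithelium and 0.62 in mesenchyme), against 4.63% of all genes. The mesenchymal call of Nkd2 was lost in 13 of 25 alternatives (adjusted p = 0.0505 to 0.132), 7 of them leaving out 1 library (parotid epithelium replicate 1, 2 or 4, parotid mesenchyme replicate 1 or 2, submandibular mesenchyme replicate 1 or 3).

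Among 61 tested signalling ligands and secreted modulators, 18 were higher and 10 lower in parotid in the mean difference, against 20.9% and 15.1% of all genes, the latter a share close to that of the list, and the list median was 0.41. Both layers called 6, all higher in parotid (4.63% of all genes): Wnt11, Gdf10, Bmp2, Sfrp2, Dkk2 and Nog. Bmp2, a BMP ligand, and Gdf10, a more distant ligand of the same superfamily, differed by more in epithelium than in mesenchyme. Bmp2 stood at 3.84 ± 0.504 (SD, n = 4) against 0.454 ± 0.313 CPM in epithelium and at 30.05 ± 10.6 against 14.7 ± 2.75 in mesenchyme. There the glands overlapped, with parotid mesenchyme replicate 4 at 16.1 CPM and submandibular mesenchyme replicate 4 at 18.3. Gdf10 stood at 10.6 ± 2.87 against 1.24 ± 0.808 in epithelium and at 47.7 ± 6.04 against 24.2 ± 7.99 in mesenchyme, and its mesenchymal call was lost without parotid mesenchyme replicate 4 (adjusted p = 0.0524 by edgeR) or any of submandibular mesenchyme replicates 1 to 3 (0.0561 to 0.0687). The latent TGF-beta binding protein gene Ltbp1 was more abundant in epithelium, with 458, 650, 721 and 732 CPM against 162, 235, 179 and 388 in submandibular epithelium. In mesenchyme it had 118, 162, 145 and 209 against 27.4, 34.1, 35.5 and 72.3. All parotid libraries lay above all submandibular libraries of the same layer, with a mean log2 fold change of 1.66 ± 0.23 (adjusted p = 6.53e-05, edgeR). Its epithelial call was lost without the pair of libraries with most erythroid counts (adjusted p = 0.0542 by edgeR), as was that of Tnfrsf19 (0.0580).

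**Figure D3:**
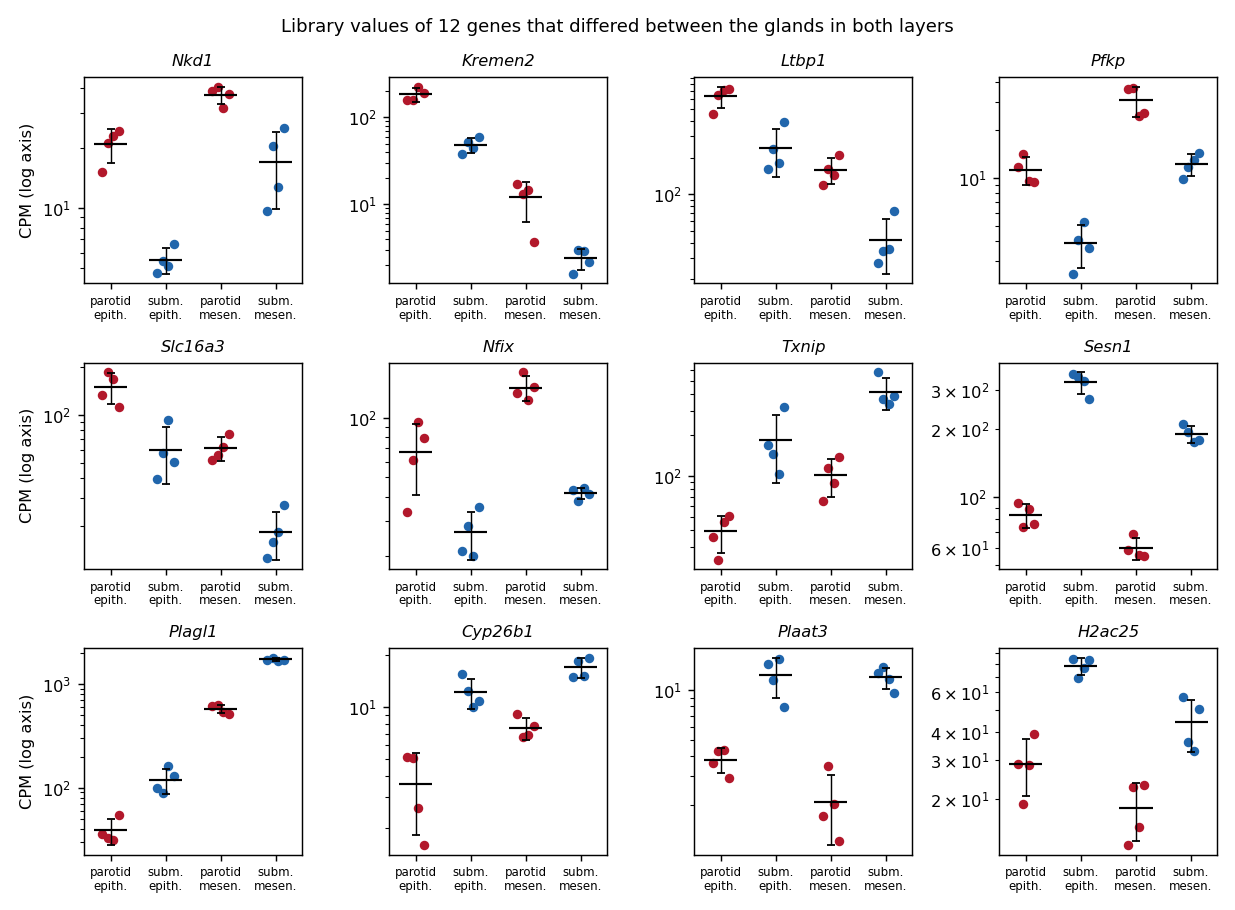
CPM (log axis) of 12 genes that differed between the glands in both layers, 1 point per library (red parotid, blue submandibular), with the group mean and SD. Red and blue points do not overlap within a layer except for Nfix in epithelium; the first 6 genes are higher in parotid, and Txnip, Sesn1, Plagl1, Cyp26b1, Plaat3 and H2ac25 are lower.

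Nrp1, a co-receptor for semaphorins and VEGF and a member higher in parotid, had 12.3, 10.4, 16.4 and 18.9 CPM in parotid epithelium against 1.15, 1.93, 4.56 and 1.83 in submandibular epithelium. In mesenchyme it had 303, 409, 335 and 381 against 81.6, 77.5, 87.2 and 128. The glands did not overlap, the mean log2 fold change was 2.30 ± 0.21 (adjusted p = 1.24e-06, edgeR), and the epithelial level was 4.06% of the mesenchymal level in parotid. Sdc3, a heparan sulfate proteoglycan chosen after its values were seen, had a layer difference whose interval lay within -1 to 1. Its log2 fold change was 1.15 in epithelium (148 ± 9.91 against 66.6 ± 9.82 CPM, SD, n = 4) and 1.48 in mesenchyme (235 ± 26.1 against 84.6 ± 9.49), with a 95% interval of the layer difference from -0.65 to 0.01. Cspg5, a chondroitin sulfate proteoglycan, had a mean log2 fold change of 1.80 ± 0.18, and Gxylt2, a xylosyltransferase that extends glycans on Notch, had 1.79 ± 0.17. The Nogo receptor relative Rtn4rl1 had 1.96 ± 0.28, the arylsulfatase gene Arsi 1.85 ± 0.24 and the inositol transporter gene Slc2a13 1.91 ± 0.15. For these 5 genes the libraries of the glands did not overlap in either layer, and the poorer layer held from 6.61% (Gxylt2) to 39.0% (Rtn4rl1) of the richer.

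Of 78 tested transcription factors that pattern the branchial arches and the face, 31 were higher and 20 lower in parotid in the mean difference, against 20.9% and 15.1% of all genes, and the list median was 0.41. Against 4.63% and 2.08% of all genes, both layers called 12 higher (Tbx2, Tshz3, Zfhx4, Shox2, Tbx15, Dlx5, Irx3, Irx5, Tbx18, Prrx2, Pou3f3 and Ebf1) and 4 lower (Barx1, Pitx1, Nr2f2 and Nkx2-3). A difference between layers was called for 8 of these 16 (Tbx2, Tshz3, Zfhx4, Irx5, Prrx2, Pou3f3, Ebf1 and Barx1). Of the others, 2, Dlx5 and Shox2, met the criteria for similar size, and both were more abundant in mesenchyme. Dlx5, a homeobox gene of the ventral arches, was chosen with Irx3 and Barx1 after its values were seen. It had 194 ± 31.8 (SD, n = 4) CPM in parotid mesenchyme and 11.6 ± 5.87 in submandibular mesenchyme, beside 2.14 ± 0.64 and 0.167 ± 0.17 in epithelium. Tbx15 had 122, 89.0, 86.3 and 89.3 CPM in parotid mesenchyme, 0.255 to 1.86 in submandibular mesenchyme, and in epithelium 0.281 to 1.37 (parotid) and 0 to 0.144 (submandibular). Pou3f3 had 38.7 to 65.3 CPM in parotid mesenchyme and at most 1.18 in any other library. In parotid, epithelium had 0.814% of the mesenchymal level of Tbx15 and 1.19% of that of Pou3f3. The summed mesenchymal identity genes stood at 1.61% there. The part of carried RNA in these epithelial levels was not tested.

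Irx3, an Iroquois homeobox gene of that list, was mainly epithelial and had a mean CPM of 84.0 ± 15.6 (SD, n = 4) in the parotid bud and of 8.95 ± 3.85 in submandibular epithelium, beside 3.37 ± 1.70 and 0.820 ± 0.302 in mesenchyme. Nkx2-3, also mainly epithelial, had 8.54 to 24.4 CPM in submandibular epithelium, 0.109 to 0.671 in submandibular mesenchyme and at most 0.0943 in any parotid library. Barx1, a homeobox gene of oral and stomach mesenchyme, was mainly mesenchymal and was lower in parotid: 193 ± 33.1 against 477 ± 28.6 CPM in mesenchyme and 0.521 ± 0.450 against 27.4 ± 10.8 in epithelium, with a called difference between the layers (adjusted p = 1.23e-05, edgeR). Of 4 HOX genes tested, 2 were higher and 1 lower in the mean difference, against 20.9% and 15.1% of all genes. Both layers called 1 (4.63% of all genes), Hoxd8, which had no count in submandibular epithelium and 0.131 ± 0.121 CPM in parotid epithelium.

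Among factors outside that list, Creb5, a bZIP factor, was more abundant in mesenchyme. It had 25.4, 21.7, 24.5 and 27.7 CPM in parotid epithelium against 5.14, 6.25, 11.5 and 7.85 in submandibular epithelium, and 270, 322, 335 and 393 in parotid mesenchyme against 65.3, 83.1, 74.0 and 88.0. No libraries overlapped, the mean log2 fold change was 1.90 ± 0.13 (adjusted p = 4.09e-08, edgeR) and the layer difference had a 95% interval from -0.94 to 0.17. Nfix, a nuclear factor I gene chosen after its values were seen, had 33.5, 61.5, 95.1 and 78.6 CPM against 21.4, 28.3, 20.2 and 35.6 in epithelium, where the glands overlapped, and 133, 170, 122 and 143 against 43.2, 37.9, 44.0 and 41.2 in mesenchyme, where they did not. Mllt3, a chromatin reader of the super elongation complex also chosen after its values were seen, had 338 ± 46.5 against 123 ± 12.8 CPM (SD, n = 4) in epithelium and 49.96 ± 5.34 against 15.9 ± 2.69 in mesenchyme.

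**Figure D4:**
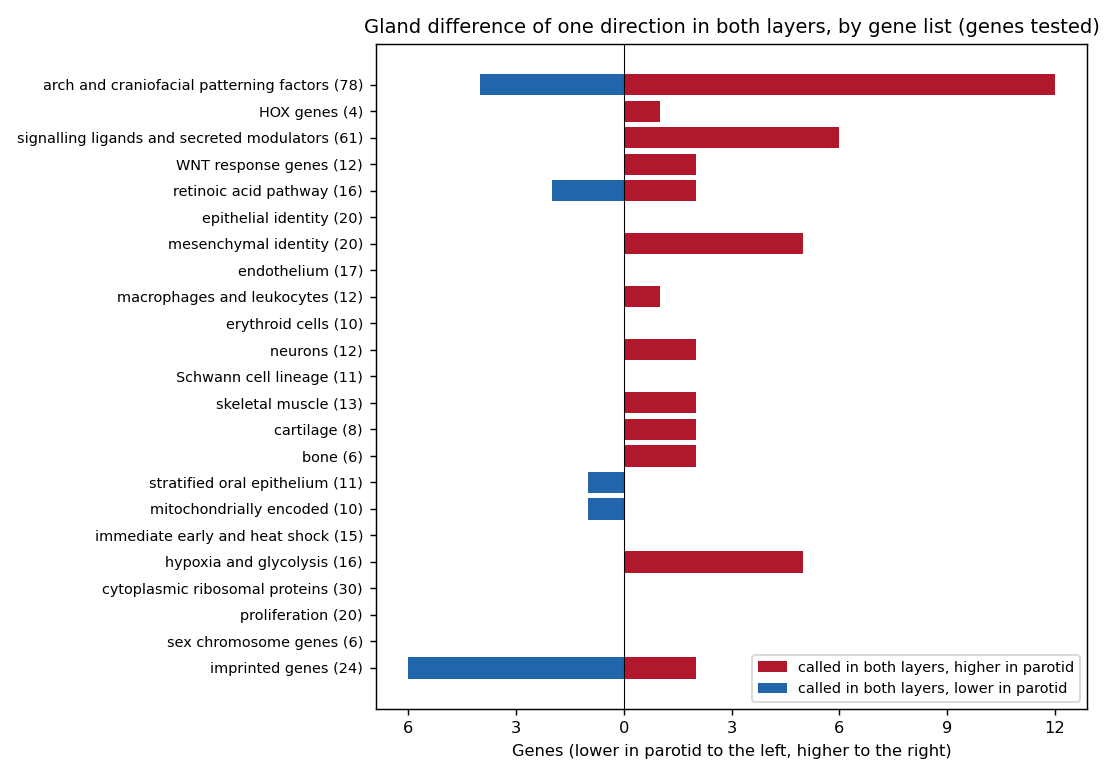
Number of genes called in both layers with one direction (horizontal axis, higher in parotid to the right, lower to the left) for each of 23 gene lists, with the number of genes tested in parentheses. The longest bars are the 12 patterning factors to the right and the 6 imprinted genes to the left; 8 lists have no bar.

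Part of the glycolysis genes were higher in parotid in both layers. Of 16 genes of a hypoxia and glycolysis list, 10 were higher and 1 lower in the mean difference, against 20.9% and 15.1% of all genes, and the list median was 0.50. Both layers called 5, Pfkp, Vegfa, Pgk1, Ldha and Eno1, all higher in parotid (4.63% of all genes). Summed over the list, parotid epithelium had 7702 ± 749 CPM (SD, n = 4) against 5040 ± 732 in submandibular epithelium, and parotid mesenchyme 2801 ± 206 against 1528 ± 126. Ldha, lactate dehydrogenase A, stood at 2743 ± 372 against 1909 ± 261 CPM in epithelium and at 901 ± 110 against 292 ± 47.4 in mesenchyme. Its log2 fold change was 0.52 in epithelium and 1.62 in mesenchyme, a called difference between layers (adjusted p = 0.000372, edgeR), as also for enolase 1, Eno1 (0.66 and 1.29, adjusted p = 0.0131, edgeR). Hk2 and Slc2a1, at the entry to the pathway, had mean log2 fold changes of 0.00 and 0.27 and were not called (adjusted p = 0.993 and 0.0939, edgeR).

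The glycolysis genes that met the criteria for similar size were Pfkp of that list and, chosen after their values were seen, Slc16a3 and Pfkfb3. Pfkp, the platelet-type phosphofructokinase, had 11.7, 14.2, 9.57 and 9.44 CPM in parotid epithelium against 2.48, 4.07, 5.30 and 3.63 in submandibular epithelium, and 36.2, 36.8, 24.5 and 25.4 in parotid mesenchyme against 9.80, 11.7, 12.9 and 14.2. Slc16a3, which exports lactate, had 133, 187, 168 and 113 CPM against 39.3, 57.3, 93.2 and 50.5 in epithelium and 51.7, 55.6, 63.1 and 76.3 against 12.5, 15.7, 18.2 and 26.8 in mesenchyme. Pfkfb3, which makes the main activator of phosphofructokinase, had 47.2, 45.8, 26.5 and 26.1 CPM against 8.48, 16.3, 22.9 and 9.86 in epithelium and 30.9, 22.4, 31.2 and 31.3 against 7.91, 8.39, 11.8 and 10.5 in mesenchyme. In all 3 genes every parotid library was above every submandibular library of its layer. The mean log2 fold changes were 1.44 ± 0.15, 1.54 ± 0.19 and 1.47 ± 0.20 in that order, with adjusted p from 3.01e-06 to 4.02e-05 (edgeR), and the poorer layer held 36.6%, 41.0% and 79.5% of the richer.

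Promoters of Slc16a3 and Pfkfb3 are shown because these members moved together. The hypoxia-inducible factors that are known to drive glycolysis genes bind a short core, of which ACGTG is 1 form. Other forms of the core were not searched. The 250 bases before each RefSeq start (GRCm38.p6) were searched for ACGTG on both strands, and matches are in capitals. CACGTG, the palindromic E-box, holds ACGTG on both strands, and there the overlapping matches are written as 1 run. Txnip, a gene lower in parotid that restrains glucose uptake, is set beside them and had no ACGTG. The window of Pfkp, not printed, had no ACGTG either.
Slc16a3 chr11:120948817-120949066 plus strand: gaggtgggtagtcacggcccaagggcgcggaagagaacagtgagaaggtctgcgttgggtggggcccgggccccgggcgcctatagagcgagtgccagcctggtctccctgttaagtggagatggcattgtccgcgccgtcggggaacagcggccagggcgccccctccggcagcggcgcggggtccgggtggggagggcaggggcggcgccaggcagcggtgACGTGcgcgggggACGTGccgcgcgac
Pfkfb3 upstream start chr2:11553930-11554179 minus strand: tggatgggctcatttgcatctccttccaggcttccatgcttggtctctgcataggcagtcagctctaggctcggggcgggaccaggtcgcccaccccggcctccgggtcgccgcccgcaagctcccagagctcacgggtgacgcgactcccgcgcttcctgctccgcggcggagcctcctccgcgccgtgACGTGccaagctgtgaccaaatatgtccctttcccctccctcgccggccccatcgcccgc
Pfkfb3 downstream start chr2:11502091-11502340 minus strand: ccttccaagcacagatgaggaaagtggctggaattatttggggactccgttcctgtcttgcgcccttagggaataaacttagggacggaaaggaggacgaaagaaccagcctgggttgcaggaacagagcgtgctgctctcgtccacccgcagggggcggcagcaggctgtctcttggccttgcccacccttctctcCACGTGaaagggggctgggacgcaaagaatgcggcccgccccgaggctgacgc
Txnip chr3:96557707-96557956 plus strand: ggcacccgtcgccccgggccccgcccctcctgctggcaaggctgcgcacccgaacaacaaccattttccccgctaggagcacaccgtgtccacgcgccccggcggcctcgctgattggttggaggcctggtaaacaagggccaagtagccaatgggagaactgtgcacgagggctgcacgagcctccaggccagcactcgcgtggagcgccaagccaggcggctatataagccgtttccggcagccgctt

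The Slc16a3 window held ACGTG with its first base 27 and 14 bases before the start. The upstream Pfkfb3 window held it 60 bases before the start, and the downstream window held a CACGTG whose first base lay 53 bases before. The windows of Pfkp and Sesn1, not printed, held no ACGTG. Of the members with a RefSeq promoter, 16 of 82 higher in parotid (19.5%) and 16 of 75 lower in parotid (21.3%) had ACGTG in a window, against 18.5% of 27025 gene symbols. CACGTG was found for 9 of the 82 and 7 of the 75, against 6.86% of symbols. The printed windows are examples, and the shares of members with ACGTG lay close together in both directions. A match is a description of the letters, and binding was not measured.

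Among the members lower in parotid was Txnip. This arrestin-like protein that binds thioredoxin and limits glucose uptake had 35.6, 24.2, 45.5 and 50.9 CPM in parotid epithelium against 168, 144, 103 and 322 in submandibular epithelium. In mesenchyme it had 65.0, 114, 88.9 and 137 against 579, 366, 336 and 384. The glands did not overlap, and the mean log2 fold change was -2.14 ± 0.24 (adjusted p = 1.39e-05, edgeR). Sesn1, a stress-induced inhibitor of mTORC1, on chromosome 10 (41809935 to 41908424, plus strand), had the smallest standard error of the named members lower in parotid. Its CPM was 94.4, 73.8, 88.7 and 75.9 against 353, 341, 326 and 272 in epithelium and 58.4, 68.9, 55.7 and 54.9 against 211, 195, 175 and 180 in mesenchyme. The groups were far apart in both layers, with log2 fold changes of -1.96 ± 0.11 and -1.68 ± 0.11, a mean of -1.82 ± 0.08 (adjusted p = 1.30e-10, edgeR) and a 95% interval of the layer difference from -0.60 to 0.05.

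Imprinted genes moved in both directions, more of them downwards. Of 24 tested, 15 were lower in parotid in the mean difference, against 15.1% of all genes. The 5 higher were no larger a share than the 20.9% of all genes, and the list median was -0.62. Both layers called Ndn and Magel2 higher (4.63% of all genes) and H19, Peg3, Zim1, Plagl1, Usp29 and Mest lower (2.08%). Plagl1, an imprinted zinc finger factor known to regulate other imprinted genes, was the member of similar size. It had 36.0, 32.9, 30.97 and 54.5 CPM in parotid epithelium against 100.1, 88.3, 162 and 129.99 in submandibular epithelium, and 614, 630.3, 544 and 521 in parotid mesenchyme against 1718, 1811, 1697 and 1730 in submandibular mesenchyme. No libraries overlapped. The log2 fold changes were -1.64 ± 0.18 and -1.59 ± 0.18, with a mean of -1.61 ± 0.13 (adjusted p = 1.63e-07, edgeR) and a 95% interval of the layer difference from -0.59 to 0.49. Epithelium had 6.90% of the mesenchymal level in submandibular gland. Zim1 and Usp29, neighbours of Peg3 in the same imprinted domain, fell by 1.59 and 0.78 in epithelium and by 2.61 and 2.46 in mesenchyme on the log2 scale. Magel2 rose by 2.62 in epithelium (18.1 ± 1.64 against 2.91 ± 1.27 CPM, SD, n = 4) and by 1.69 in mesenchyme (160 ± 21.7 against 49.4 ± 7.68). For Zim1, Usp29 and Magel2 the layers differed in size (adjusted p = 0.0489, 7.69e-06 and 0.0241, edgeR).

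Retinoic acid pathway genes split. Of 16 tested, 7 were higher and 5 lower in parotid in the mean difference, against 20.9% and 15.1% of all genes, with a list median of 0.12. Both layers called Crabp1 and Aldh1a3 higher and Aldh1a1 and Cyp26b1 lower (4.63% and 2.08% of all genes). Cyp26b1, which degrades retinoic acid, was the member of similar size. It had 5.13, 5.07, 2.59 and 1.59 CPM in parotid epithelium against 15.5, 12.3, 9.97 and 10.7 in submandibular epithelium, and 9.07, 6.68, 6.83 and 7.70 in parotid mesenchyme against 14.9, 18.4, 14.97 and 19.2. The glands were apart in both layers (mean log2 fold change -1.45 ± 0.20, adjusted p = 3.22e-05, edgeR). Epithelium had 71.9% of the mesenchymal level in submandibular gland and 47.5% in parotid. Aldh1a3, which makes retinoic acid and was also chosen after its values were seen, stood at 26.5 ± 1.28 against 7.60 ± 1.40 CPM (SD, n = 4) in epithelium and at 19.9 ± 7.04 against 10.4 ± 3.40 in mesenchyme. Aldh1a1 had 3.77 to 8.14 CPM in submandibular epithelium, 0.678 to 1.40 in parotid epithelium, 0.871 to 2.01 in submandibular mesenchyme and 0 to 0.0548 in parotid mesenchyme. Its close paralog Aldh1a7, chosen after its values were seen, had 118 ± 30.2 against 6.01 ± 2.71 CPM in epithelium and 2.33 ± 1.11 against 0.110 ± 0.120 in mesenchyme. Reads that fit both paralogs could have been split between them.

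The remaining named members lower in parotid had various roles. Plaat3, a phospholipase and acyltransferase, was as abundant in one layer as in the other in submandibular gland: 12.3 ± 3.36 CPM (SD, n = 4) in epithelium and 11.9 ± 1.73 in mesenchyme, against 3.79 ± 0.655 and 2.11 ± 0.959 in parotid. Arhgap24, a GTPase-activating protein for Rac, had a mean log2 fold change of -1.92 ± 0.23. Lypd6, a membrane-anchored protein of the LY6 family, had -1.76 ± 0.20, the protease gene Bace2 -1.71 ± 0.14 and the phosphatidylinositol transfer protein gene Pitpnm1 -1.44 ± 0.14. Nrk, an X-linked kinase gene, had 1756 ± 148 against 440 ± 78.7 CPM in mesenchyme and 19.02 ± 14.4 against 6.06 ± 1.91 in epithelium. Col17a1, a collagen of the hemidesmosome, was epithelial, with 80.8 ± 13.9 in parotid against 233 ± 67.5 CPM in submandibular gland, and had 2.46 ± 1.16 against 6.76 ± 2.16 in mesenchyme. H2ac25, a histone H2A gene, had 28.7, 19.1, 28.3 and 39.2 CPM against 84.2, 69.2, 77.3 and 83.6 in epithelium and 12.5, 22.6, 15.1 and 23.1 against 57.0, 35.9, 32.9 and 50.3 in mesenchyme, with no overlap. Histone genes as a whole held 0.211 to 0.239% of counts in parotid and 0.246 to 0.280% in submandibular epithelium, and 0.111 to 0.143% against 0.136 to 0.150% in mesenchyme, where the glands overlapped. Histone genes have near-identical copies, and an exon of H2ac25 overlaps Trim17, so its reads are uncertain. An exon of 66 of the 228 members overlaps another annotated gene, and since the library kit does not mark strand, reads of an antisense partner cannot be told apart, as for Txnip and Gm15441.

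Transcripts other than protein-coding ones were unevenly divided. Among members lower in parotid, 38 of 116 (32.8%) had such a biotype, against 5 of 112 (4.46%) higher in parotid and 19.3% of all genes tested. Noncoding biotypes held 1.57 to 1.87% of counts in parotid mesenchyme against 1.97 to 2.10% in submandibular mesenchyme, and 1.44 to 1.63% against 1.59 to 1.93% in epithelium. Mitochondrially encoded genes had the same direction in both layers: they held 0.345 to 0.463% of counts in parotid against 0.547 to 0.942% in submandibular epithelium, and 0.376 to 0.566% against 0.577 to 0.675% in mesenchyme. All 10 tested were lower in parotid in the mean difference (15.1% of all genes), with a list median of -0.69. Both layers called 1, mt-Nd4, against 2.08% of all genes. This gene had 209 ± 27.4 against 401 ± 91.2 CPM (SD, n = 4) in epithelium and 310 ± 61.8 against 423 ± 27.1 in mesenchyme. Its mesenchymal call (adjusted p = 0.0322, edgeR) was lost in 8 of 25 alternatives. These were the removal of GC and length trends (0.247), no filter beyond 1 count (0.0576), and leaving out parotid mesenchyme replicate 2, 3 or 4 or submandibular mesenchyme replicate 1, 3 or 4 (0.0550 to 0.107, edgeR). The gland difference also moved with GC content. The median log2 fold change went from -0.12 among the 3629 genes with least GC to 0.17 among the 3629 with most in epithelium, and from -0.08 to 0.16 in mesenchyme. The median GC content was 49.8% for members higher in parotid, 47.4% for members lower and 49.2% for all genes tested. With trends of GC content and length removed, an alternative chosen after the data were seen, 204 genes met the criteria, 188 of them among the 228. The part of these measures in the members was otherwise not tested, and a batch that follows the gland cannot be told apart from it.

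**Figure D5:**
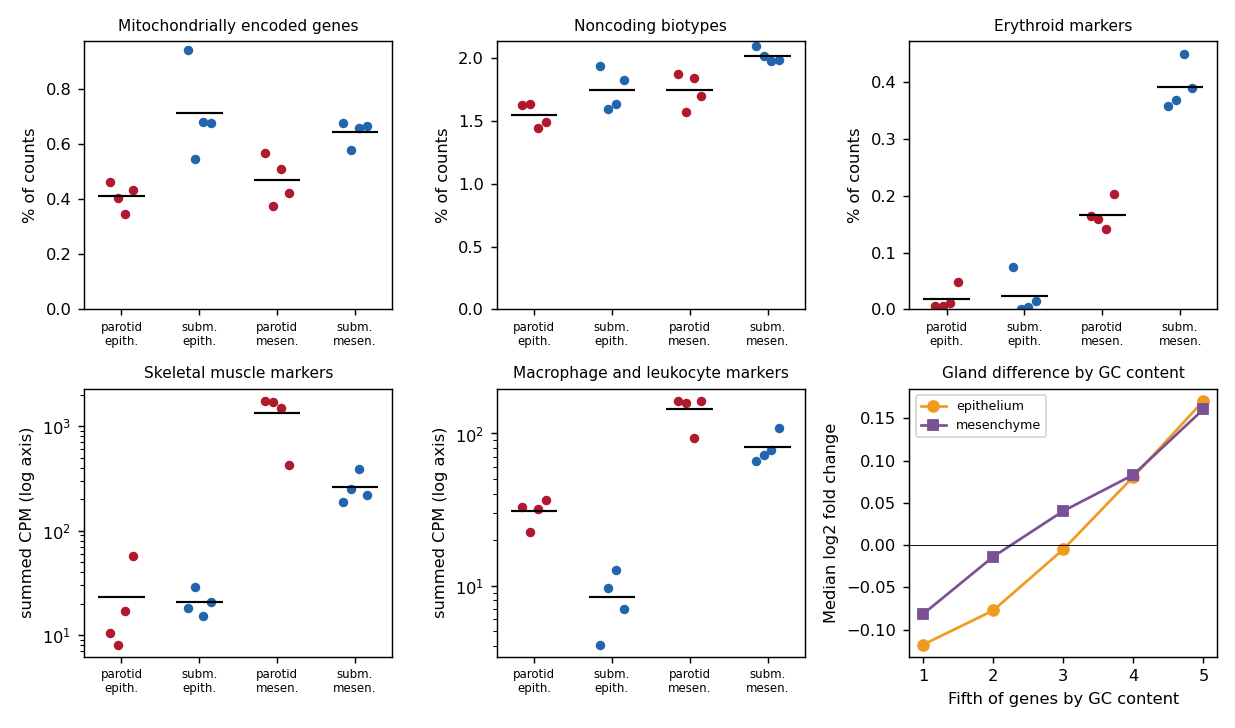
Measures by library set against the gland: percent of counts (upper row), summed CPM of marker genes on a log axis (lower left and middle), and the median log2 fold change of parotid over submandibular gland for 5 equal classes of genes by GC content (lower right). Bars are group means. The glands overlapped in epithelium for noncoding biotypes, erythroid and muscle markers, and in mesenchyme for macrophage and leukocyte markers. Mitochondrially encoded genes are lower in parotid in both layers without overlap (0.345 to 0.463% against 0.547 to 0.942% in epithelium), and the lines for both layers rise together with GC content.

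Markers of other cell types moved with the gland, mostly in a single layer. Their counts stand beside 20.9% of all genes higher and 15.1% lower in the mean difference, and 4.63% and 2.08% called in both layers. Of 13 skeletal muscle genes 8 were higher in parotid in the mean difference, the list median was 1.99, and both layers called Myog and Myh8. A layer's call of Myog was lost in 16 of 25 alternatives, as with DESeq2 (adjusted p = 0.0962 in mesenchyme), limma-voom (0.441 in epithelium) and the replicate block (0.0788 in epithelium, edgeR). Leaving out 1 library ended its epithelial call in 10 cases (0.0509 to 0.184, edgeR): parotid epithelium replicates 3 and 4, parotid mesenchyme replicate 1, each submandibular epithelium library, and submandibular mesenchyme replicates 1, 2 and 4. The muscle genes' sum was 427 to 1743 CPM in parotid and 187 to 389 in submandibular mesenchyme, but 8.12 to 56.8 and 15.3 to 28.9 in epithelium, where the glands overlapped. Myh8, the perinatal skeletal myosin heavy chain, was a member of similar size, with 49.3, 47.1, 47.2 and 6.39 CPM in parotid mesenchyme, 2.60 to 7.33 in submandibular mesenchyme, and in epithelium 0.844 to 2.26 (parotid) and 0.121 to 0.440 (submandibular). Of 12 macrophage and leukocyte genes 11 were higher in parotid, and both layers called 1, Lyz2. Its call in a layer was lost in 10 of 25 alternatives, as with library totals (adjusted p = 0.0758 in mesenchyme, edgeR). Leaving out parotid mesenchyme replicate 4, submandibular epithelium replicate 1 or any of submandibular mesenchyme replicates 1 to 3 ended its mesenchymal call (0.0501 to 0.187, edgeR). The sum of these genes was 22.6 to 36.3 CPM in parotid against 4.10 to 12.7 in submandibular epithelium, and 93.6 to 164 against 66.4 to 108 in mesenchyme. Cd74, an antigen presentation gene chosen after its values were seen, was a member with 16.2 ± 4.87 against 2.59 ± 1.37 CPM (SD, n = 4) in epithelium and 5.09 ± 3.38 against 1.26 ± 0.803 in mesenchyme. Of 12 neuronal genes 5 were higher and 1 lower, and both layers called Nefl and Prph, with epithelial calls lost in 11 and 7 of 25 alternatives (adjusted p up to 0.151 and 0.119). Nefl stood at 1113 ± 317 against 61.4 ± 1.60 CPM in mesenchyme and at 4.70 ± 3.97 against 1.18 ± 1.40 in epithelium. The part of these cells in the members was not tested.

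The counts of the next lists also stand beside 20.9% of all genes higher and 15.1% lower in the mean difference. Both layers called 4.63% and 2.08% of all genes. Mesenchymal identity genes were higher in parotid for 11 of 20 and lower for 0, with a list median of 0.97. Both layers called 5, with 2, Mfap5 and Zeb2, of similar size. In parotid epithelium Zeb2 stood at 0.447% and Mfap5 at 3.09% of the mesenchymal level. The summed identity list, which includes both, stood at 1.61%. The epithelial call of Zeb2 (adjusted p = 0.0434, edgeR) was lost in 14 of 25 alternatives, among them without the pair of epithelial libraries with most erythroid counts (0.260, edgeR). It was also lost in 11 of the 16 cases with 1 library left out (0.0511 to 0.128, edgeR): parotid epithelium replicates 1, 3 and 4, parotid mesenchyme replicates 2 and 3, submandibular epithelium replicates 1 and 2, and each submandibular mesenchyme library. Postn, a matricellular protein, stood at 3699 ± 1454 against 288 ± 10.6 CPM (SD, n = 4) in mesenchyme and at 51.1 ± 27.99 against 17.8 ± 8.30 in epithelium. Epithelial identity genes were higher for 0 of 20 and lower for 4, and both layers called 0. Endothelial genes were higher for 8 of 17 and lower for 0, all without a call in both layers. Cartilage genes were higher for 3 of 8 and lower for 1, and both layers called Sox9 and Col11a1, of which the fibrillar collagen gene Col11a1 was of similar size (log2 fold change 1.21 in epithelium and 1.15 in mesenchyme). Of 6 bone genes 2 were higher and 1 lower, and both layers called Alpl and Spp1, higher in parotid. The epithelial call of Sox9 was lost in 6 of 25 alternatives (adjusted p = 0.0548 to 0.106), and a layer's call of Spp1 in 9. Schwann cell lineage genes were higher for 3 of 11 and lower for 1, erythroid genes higher for 0 of 10 and lower for 1, immediate early and heat shock genes higher for 0 of 15 and lower for 2, cytoplasmic ribosomal protein genes higher for 0 of 30 and lower for 10, and proliferation genes higher for 2 of 20 and lower for 0. These counts lay near or under the shares of all genes, except for the 10 lower of 30 ribosomal protein genes. None of these 5 lists had a gene called in both layers with one direction. Stratified oral epithelium genes were lower for 6 of 11 and higher for 0, and both layers called 1, the keratin gene Krt10, lower.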

How the data were processed

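Bulk RNA-seq libraries of 4 groups with 4 samples each were compared, grouped by sample title. RNA was made into full-length cDNA with the SMART-Seq v4 kit and into libraries with Nextera XT, which do not mark strand, per the labels. The submitters' processing notes name STAR 2.5.2a, edgeR and GRCm38 (mm10). The read counter is not given in the sources used here, nor is the annotation. The authors deposited raw counts per gene for 48709 genes, and these were tested. Gene symbols and biotypes came from the authors' deposited table of normalized signal, in CPM, with gaps filled from reference annotation. The signal values of that table were not used. In all 24 replicate pairs counts differed by more than sampling noise (chi-square per gene 9.56 to 47.9).

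Spike-in features were left out of tests and library sizes. The edgeR filter filterByExpr kept 18191 genes, which held at least 99.88% of gene counts in every library. A model with 1 coefficient per group was fitted with edgeR 4.0.16 (TMM, robust quasi-likelihood) in R 4.3.3, with Benjamini-Hochberg adjustment over all tested genes at 0.05. Fitted log2 fold changes include edgeR's small prior count. The SE is the log2 fold change over the root of F, and the SE of the layer difference combines those of both layers. On simulated counts for the mean difference, 88% of 100 genes changed by 1 on the log2 scale were recovered and 96% of those changed by 2, with 0.0389% of unchanged genes called. The changed genes were drawn only from genes above a count minimum. The rate therefore does not describe members with few counts, nor the criteria for similar size. Gene models and GC content came from GENCODE (GRCm38) and promoters from RefSeq.

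Members and the 23 gene lists were chosen with earlier results of these data known. The genes named were, among members with at least 5 CPM in the higher gland in each layer and no overlap of the glands' libraries, the 12 with the largest mean change in each direction, and from each list up to 3 genes called in both layers. The numbers 1 to 4 were not used to pair the samples in the main fit. Alternatives were other scalings, filters and tools (DESeq2 1.42.0, limma 3.58.1 with voom), a replicate block, an additive model, other criteria for similar size, and leaving out each library. The value of 1 identity marker is not reported here.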

Additional observations from a re-analysis of the deposited data

Results flagged for a closer look

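In 14 of 216 groups of 4 libraries of the named genes, the highest or lowest library stood far from the other 3, where chance alone gives about 1 in 20. Raised against the others of their group were Dkk2 in submandibular epithelium replicate 3 (8.01 CPM, others 0.322 to 1.32), Nrk in the same library (40.4, others 10.2 to 15.3), and Spp1 there (1.64, others 0.645 to 0.697). Rtn4rl1 (7.13, others 2.71 to 3.20) and Crabp1 (31.4, others 16.03 to 17.7) were raised in submandibular mesenchyme replicate 4, and Prph in submandibular mesenchyme replicate 3 (0.568, others 0 to 0.0545). In parotid, Mfap5 (2.36, others 0.281 to 0.518) and Myog (4.82, others 0 to 0.707) were raised in epithelium replicate 4, Tbx15 in mesenchyme replicate 1 (122, others 86.3 to 89.3), and Lyz2 in mesenchyme replicate 4 (32.02, others 11.97 to 14.3). Myh8 was low in parotid mesenchyme replicate 4 (6.39, others 47.1 to 49.3) and raised in submandibular epithelium replicate 4 (0.440, others 0.121 to 0.159). Tnfrsf19 (325, others 348 to 352) and Bace2 (1.97, others 2.51 to 2.55) were low in parotid epithelium replicate 2.

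Of 54 named genes, all called in both layers, 12 had a gland difference whose size differed between the layers by edgeR's quasi-likelihood test. Such a difference was called for 20.9% of all genes, a share close to that of the named genes. Members of similar size had no such call by their criteria. The log2 fold change in epithelium minus that in mesenchyme was -4.59 for Pou3f3, -3.46 for Sox9, -2.16 for Postn, -1.10 for Ldha and -0.63 for Eno1, which differed more in mesenchyme. It was 2.12 for Bmp2, 2.06 for Gdf10, 1.19 for Nkd2 and 0.93 for Magel2, which rose more in epithelium, and 2.95 for Aldh1a1, 1.68 for Usp29 and 1.02 for Zim1, which fell more in mesenchyme.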

How the results depend on the processing

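The main counts were 6544 genes for the mean difference, 1221 of one direction in both layers and 228 of similar size. Leaving out 1 library at a time gave 5752 to 7106 (3405 to 4196 higher and 2306 to 2910 lower in parotid), 824 to 1581 (587 to 1171 and 237 to 410) and 174 to 235 (89 to 128 and 79 to 109). Library totals alone gave 4150 genes lower in the mean difference and, in both layers, 549 higher and 647 lower. With no filter beyond 1 count, 226 were lower in both layers. Without the pair of epithelial libraries with most erythroid counts, 614 had one direction (407 higher, 207 lower) and 148 were of similar size, 70 of them lower. A 2-fold minimum on the mean difference left 1847 (998 and 849). Other criteria for similar size gave 150 (75 lower) at most 0.5 apart, 949 (642 and 307) with no fold minimum, 62 higher with the poorer layer at 10% or more, 33 (23 and 10) by the interval, 58 (41 and 17) at 5 CPM in each layer and 98 (21 and 77) above every identity marker, both of the latter chosen after seeing the data. DESeq2 gave 252 and limma-voom 182. The replicate block gave 6581, 1347 and 215, averaging same-numbered layers 6230, and an additive model 5556. Same-numbered samples had correlations of -0.12 to 0.22. In submandibular gland the layers of replicates 1 and 2 correlated at 0.215 and 0.218, against at most 0.024 and -0.038 with other numbers. Replicates 3 and 4 there had 0.051 and 0.021, against up to 0.214 and 0.030. In parotid the same-numbered layers had -0.117 to -0.006. Whether some same-numbered samples shared an origin was not settled. Of 1458 alternatives of 54 named genes, 1457 kept their direction and call in the mean difference. The exception was Myog with limma-voom (log2 2.76, adjusted p = 0.16 by limma). Calls in a single layer were less stable, as for Nkd2, Zeb2 and Gdf10. Counting limits the members with few counts in their poorer layer.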
